A study of Homo sapiens with 12 samples.

Results

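The comparison sets A549 cells exposed to TGFβ for 96 h against A549 cells not yet exposed (0 h), to describe how far the transcriptome had moved by the last time sampled. A well was counted as a cell when it held 100 to 40000 unique molecular identifiers (UMIs, tags that mark single captured mRNA molecules), 2000 to 7000 detected genes and at most 35% of counts from the mitochondrial chromosome. By this rule 465 of the 1871 kept cells of the series belonged to it, from 4 of 12 libraries. At 0 h there were 181 cells in replicate 1 and 166 in replicate 2, and at 96 h 54 and 64. A549 is an established human lung adenocarcinoma line, so both groups share one genetic background and one line stands for epithelium. The protocol gives TGFβ at 4 ng/mL, and the labels of the libraries give the time of exposure. Hours of exposure are all that sets the groups apart in the labels. No cells kept for 96 h without TGFβ were sampled. Changes due to TGFβ and changes due to longer time in culture therefore cannot be told apart in any result below. Single live cells were sorted into wells and read by CEL-Seq2, which captures the 3′ end of polyadenylated RNA. Nothing in the labels ties the 2 replicates to separate cultures, and p-values therefore cover the spread between libraries, which may be technical.

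TGFβ is a secreted cytokine that binds a pair of serine/threonine kinase receptors, which phosphorylate SMAD proteins that enter the nucleus and regulate transcription with partners such as AP-1. In epithelial cells it can start the epithelial-to-mesenchymal transition (EMT), in which cells lose E-cadherin junctions, take up N-cadherin and vimentin, deposit matrix and become motile. Transcription factors of the SNAI, ZEB and TWIST families repress epithelial genes in this process. A549 cells keep some products of secretory epithelium and of liver-type metabolism, and they carry a KEAP1 mutation that leaves the antioxidant factor NRF2 active. They are widely used to study EMT because they respond to TGFβ strongly.

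The 4 libraries differed in size and quality. The kept cells held 4231352 and 3759653 UMIs at 0 h and 1407221 and 1692872 at 96 h. Of the wells, 47.1% and 43.2% were kept at 0 h and 14.1% and 16.7% at 96 h, because more wells at 96 h (310 and 314 against 192 and 215) held under 2000 genes. The kept cells themselves were not shallower at 96 h, with a median of 25995 and 25668 UMIs against 23340 and 22196. Mitochondrial transcripts made up 25.0% and 23.3% of UMIs at 0 h and 20.5% and 20.8% at 96 h. Wells over the upper limits were 27.0% and 8.57% of wells with 2000 genes or more at 96 h, against 5.21% and 1.78% at 0 h. The part of these differences in the results below was not tested, and the call counts without the upper limits are given in the closing section. Levels are CPM (each count as a share of its library total) after library scaling, listed as replicate 1 and then replicate 2. A sum over cells cannot tell fewer expressing cells from less RNA per cell, so shares of cells are given at the end.

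Marker lists were read to check the labelled cell line. A list of 15 A549 identity genes, of which 14 were in the table, summed to 17354 and 19983 CPM at 0 h and 11796 and 11040.4 at 96 h (CPM of the unscaled sums), and 7 of its 10 tested genes fell while ALDH1A1 rose (median log2 change -1.73). Alveolar lineage genes, 18 in all, summed to 538 and 439.9 CPM at 0 h and 342 and 282 at 96 h, nearly all of it CAV1, and the surfactant gene SFTPC stayed at 0 counts in all 4 libraries. Fibroblast markers summed to 16.8 and 21.0 CPM at 0 h and 91.0 and 58.5 at 96 h, of which COL6A3 gave 69, 70, 119 and 94 counts, while COL1A2, COL3A1, DCN and PDGFRA had at most 2 counts in any library. Only 2 of the 13 fibroblast markers passed the filter on low counts, and LUM rose on 1 count at 0 h and 8 at 96 h (ratio 20.1 (exact 95% interval 2.69 to 889.8), counting error only). That call was lost in 6 alternative settings, among them leaving out any 1 of the 4 libraries, and LUM was not tested in 5 more. Endothelial markers summed to 10.4 and 6.65 CPM at 0 h and 8.53 and 15.4 at 96 h with PECAM1 at 0 throughout, and neither of their 2 tested genes passed by edgeR, DESeq2 or limma (0 with an unadjusted p under 0.05). Immune markers summed to 8.98 and 9.84 CPM at 0 h and 1.42 and 1.77 at 96 h with PTPRC at 0 throughout, and their 1 tested gene, CD14, fell from 6.44 and 8.35 CPM to 0.692 and 0 CPM. The part of these transcripts in the results was not tested.

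Both cadherins switched. CDH1, which encodes E-cadherin of epithelial adherens junctions (chromosome 16, 68737292 to 68835537, plus strand, 16 exons; GRCh38, GENCODE 44), stood at 35.4 and 29.5 CPM at 0 h and 0 and 1.18 CPM at 96 h. That is 256 counts against 2, a ratio of summed levels of 51.1 (exact 95% interval 14 to 424) covering counting error only (adjusted p = 1.27e-05, edgeR). CDH2, which encodes N-cadherin (chromosome 18, 27932879 to 28177946, minus strand, 16 exons), stood at 5.94 and 8.87 CPM at 0 h and 123 and 92.6 CPM at 96 h, a log2 change of 3.86 ± 0.26 (SE, n = 2 libraries per time; adjusted p = 2.86e-10). For neither gene did the libraries of the 2 times overlap.

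The other 3 marker genes were near absent in one state and plentiful in the other. SPOCK1, a secreted proteoglycan of the testican family (chromosome 5, 136975298 to 137598379, minus strand, 11 exons), was measured at 0.743 and 0.783 CPM at 0 h and 123 and 114 CPM at 96 h (log2 change 7.22 ± 0.32, adjusted p = 4.8e-13). SLN, which encodes sarcolipin, a small membrane protein that binds and restrains the SERCA calcium pump of muscle (chromosome 11, 107707378 to 107719693, minus strand, 2 exons), had 0 counts in both 0 h libraries and 47.7 and 43.7 CPM at 96 h. Its 143 counts at 96 h put it at least 119-fold higher than the limit that a count of 0 allows (3 counts over the 0 h group, 0.381 CPM). MMP7, matrilysin, a secreted metalloproteinase of glandular epithelium (chromosome 11, 102520508 to 102530750, minus strand, 6 exons), was measured at 325 and 229 CPM at 0 h and 0.692 and 0 CPM at 96 h. Its 2191 counts fell to 1, a ratio of 874 (exact 95% interval 157 to 34542). All 5 markers passed the threshold of an adjusted p of 0.05 over all genes, and in each the 2 libraries of one time lay wholly to one side of those of the other. The markers were chosen with earlier results of these data known, so this is no independent support. In a panel of 16 EMT genes that holds these 5, 9 rose, 2 fell and 5 did not pass. Of all tested genes 11.3% rose and 10.7% fell. The 2 panel genes that fell were the markers CDH1 and MMP7, and CDH2, SPOCK1 and SLN were among those that rose.

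**Figure D1:**
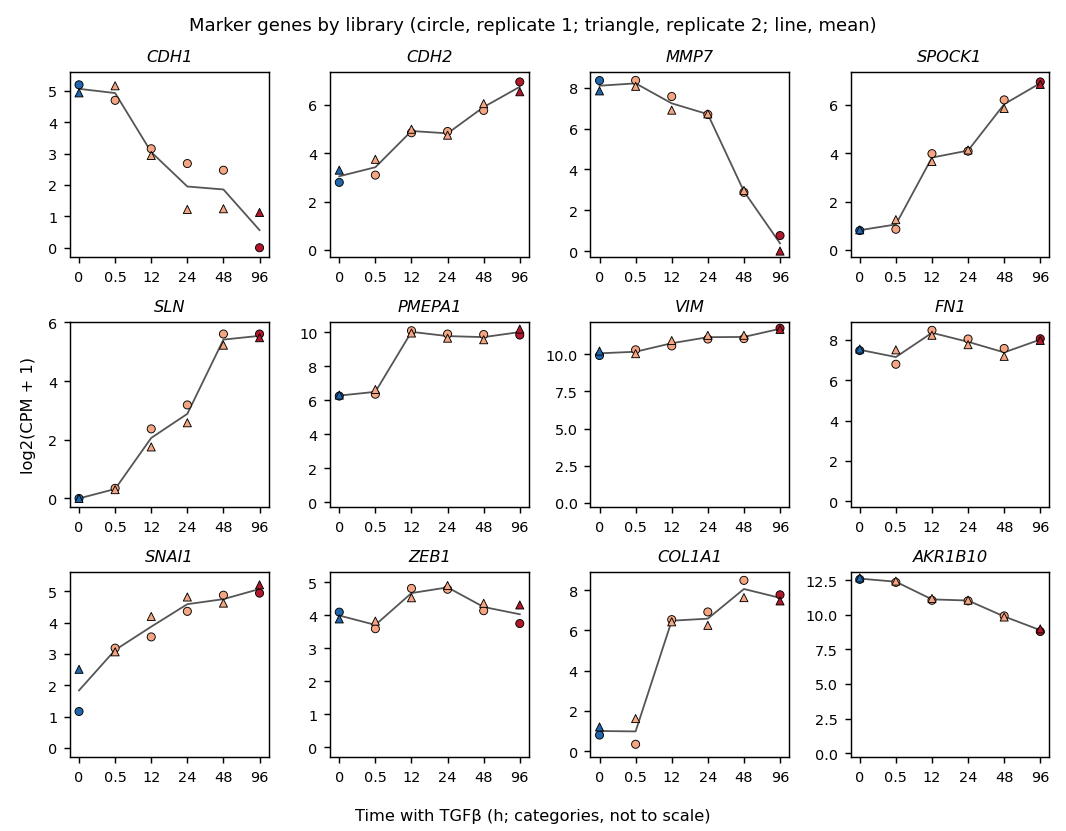
Levels of 12 genes, the 5 markers first, as log2(CPM + 1) against hours of TGFβ (categories, not to scale). Circles are replicate 1, triangles replicate 2 and the line their mean. CDH1 and MMP7 run down to 1.18 CPM or less at 96 h, while CDH2, SPOCK1 and SLN end at 43.7 to 123 CPM.

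Across all gene types 11728 genes were tested, and 2584 of them (22.0%) passed an adjusted p of 0.05, 1329 higher at 96 h (11.3% of those tested) and 1255 lower (10.7%). In 2582 of these the libraries of the 2 times did not overlap, which genes that pass with 2 libraries per time nearly always show. The share without overlap among all tested genes was not counted. Non-overlap, here or for single genes that passed, is thus a description and adds no support to a call. The change exceeded 2-fold for 953 of the higher and 656 of the lower genes, and the median log2 change of all tested genes was 0.01. Of the called genes, 59 had no count left at 96 h and 33 had none at 0 h, so their fitted changes carry no size. Leaving out 1 library lowered the count most for 96 h replicate 2 (1509 genes), 0 h replicate 1 (1605) and 96 h replicate 1 (1694).

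**Figure D2:**
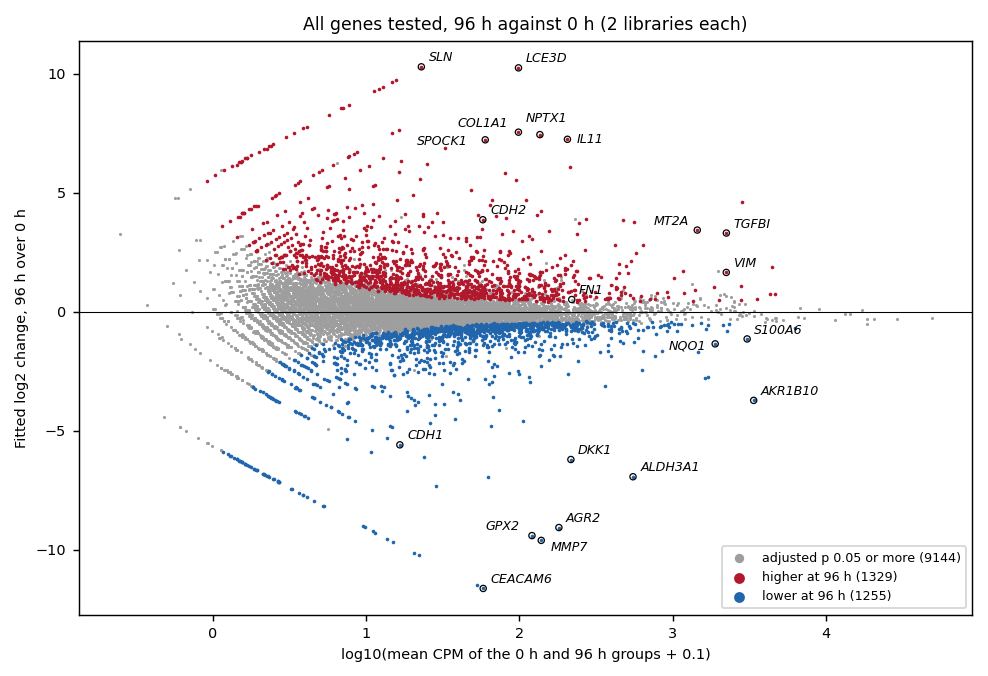
Mean level of every tested gene at 0 h and 96 h (log10 of CPM + 0.1, horizontal) against its fitted log2 change from 0 h to 96 h (vertical). Red points rose (1329), blue points fell (1255) and gray points did not pass an adjusted p of 0.05. The slanted lines of points at the left and bottom are genes with few or no counts at one time, whose fitted change is no size.

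The genes that rose most, among those reaching 50 CPM, had varied roles. LCE3D, a late cornified envelope gene better known from skin, rose from 1 count at 0 h to 131 and 263 CPM (ratio 1592 (exact 95% interval 285 to 62963)). COL1A1, the α1 chain of type I collagen, stood at 0.743 and 1.30 CPM at 0 h and 217 and 175 CPM at 96 h (log2 change 7.54 ± 0.55). NPTX1, a secreted pentraxin of neurons, stood at 0.495 and 2.61 CPM at 0 h and 259 and 282 CPM at 96 h (log2 change 7.43 ± 0.51). In all 3 genes the 0 h libraries were at 2.61 CPM or less and the 96 h libraries at 131 CPM or more. IL11, a cytokine of the IL-6 family known in fibrosis, stood at 1.98 and 3.39 CPM at 0 h and 388 and 429 CPM at 96 h (log2 change 7.24 ± 0.32), and TNFAIP6, a hyaluronan-binding secreted protein, at 0.743 and 0.261 CPM at 0 h and 61.6 and 67.3 CPM at 96 h (log2 change 6.89 ± 0.40). The sheddase ADAM19 rose by 5.51 on the log2 scale, GLIPR1 by 5.11, the glycoprotein hormone STC1 by 4.71 and the transcription factor FOXP1 by 4.21.

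The genes that fell most, by the same minimum level, were also mixed. CEACAM6, a cell-surface adhesion molecule of epithelial cancers, went from 127 and 105 CPM to 0 counts in both 96 h libraries, at least 122-fold lower. INHBB, which encodes the inhibin βB chain, went from 107 and 106 CPM to 0 counts, at least 111-fold lower. GPX2, a glutathione peroxidase of epithelia and a known NRF2 target, went from 205 and 277 CPM to 1 count (ratio 754 (exact 95% interval 135 to 29799)). In these 3 genes the whole 96 h group held at most 1 count. AGR2, a protein disulfide isomerase that mucus-secreting cells need, went from 396 and 327 CPM to 2 counts (ratio 569 (exact 95% interval 157 to 4697)), and FA2H, a fatty acid hydroxylase, from 56.0 and 56.9 CPM to 1 count (ratio 177 (exact 95% interval 31.6 to 7012)). ALDH3A1, an aldehyde dehydrogenase, stood at 1071 and 1114 CPM at 0 h and 6.92 and 10.6 CPM at 96 h (log2 change -6.94 ± 0.31). The Wnt antagonist DKK1 stood at 386 and 469 CPM at 0 h and 5.54 and 5.90 CPM at 96 h (log2 change -6.21 ± 0.26). The tetraspan proteins TM4SF4 and TM4SF20 changed by -4.81 and -4.36, and the caveolar coat protein CAVIN2 by -4.69.

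AP-1 and NRF2 sites are the ones that TGFβ and oxidative stress signaling are known to use. From the genes above that went from near absence to plenty or the reverse, 4 with a match were picked. The 250 bases before their start are shown. They come from RefSeq promoters on GRCh38.p14, 5′ to 3′ on the gene's strand: MMP7 at chr11:102530748-102530997 (minus strand), IL11 at chr19:55370464-55370713 (minus strand), TNFAIP6 at chr2:151357342-151357591 (plus strand) and GPX2 at chr14:64942746-64942995 (minus strand). Capitals mark letters that match the AP-1 motif TGANTCA in MMP7 (67 bases before the start), IL11 (96 bases) and TNFAIP6 (129 bases), and in GPX2 the antioxidant motif TGACNNNGC on the opposite strand (122 bases) and the E-box CAGGTG (141 bases).
MMP7: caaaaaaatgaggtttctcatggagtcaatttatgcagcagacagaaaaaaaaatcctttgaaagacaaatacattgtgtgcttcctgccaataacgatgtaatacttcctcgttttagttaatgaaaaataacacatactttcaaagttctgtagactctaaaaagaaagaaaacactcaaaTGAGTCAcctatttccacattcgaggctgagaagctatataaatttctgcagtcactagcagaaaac
IL11: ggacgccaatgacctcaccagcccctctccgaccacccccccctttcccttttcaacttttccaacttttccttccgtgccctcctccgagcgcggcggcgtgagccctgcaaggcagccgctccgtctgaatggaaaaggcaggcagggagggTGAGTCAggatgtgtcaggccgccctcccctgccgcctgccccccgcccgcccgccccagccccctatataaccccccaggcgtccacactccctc
TNFAIP6: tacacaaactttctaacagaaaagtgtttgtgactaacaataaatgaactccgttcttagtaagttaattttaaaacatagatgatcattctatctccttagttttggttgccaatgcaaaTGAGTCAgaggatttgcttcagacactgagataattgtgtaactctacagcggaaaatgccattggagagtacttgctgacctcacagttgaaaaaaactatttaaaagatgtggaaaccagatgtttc
GPX2: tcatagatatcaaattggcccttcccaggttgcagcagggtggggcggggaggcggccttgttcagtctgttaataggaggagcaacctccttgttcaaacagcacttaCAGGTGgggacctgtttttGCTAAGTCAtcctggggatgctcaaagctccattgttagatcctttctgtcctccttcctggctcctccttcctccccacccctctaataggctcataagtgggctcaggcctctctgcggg
The AP-1 letters stood in the promoter of MMP7, which fell, and in those of IL11 and TNFAIP6, which rose. The promoters of CEACAM6, INHBB, DKK1, TM4SF20 and CAVIN2, also among the genes that fell most, held none of the motifs searched.

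The same letters were counted in the 250 bases before and 50 after the start, on both strands, over all 35116 promoters of the table. TGANTCA was in 7.71% of them, in 5.34% of promoters of the genes tested, in 6.87% of those of genes higher at 96 h and in 6.90% of those of genes lower. In the same order the antioxidant motif was in 13.3%, 14.5%, 13% and 15%, the E-box in 20.6%, 18%, 19.4% and 19.7%, and the SMAD palindrome GTCTAGAC in 0.202%, 0.170%, 0.179% and 0.137%. For TGANTCA and the E-box the called genes thus lay below all promoters and above those of the genes tested, in both directions, and these shares were not tested. Of the 42 panel and most changed genes, 27 had a promoter in the table, and 18 of their 40 promoters held at least 1 of the motifs. The share of all promoters with at least 1 of the motifs was not counted, so this count shows nothing particular to these genes. A match describes letters in a window and is not a binding site.

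Genes were next grouped by function, as hand-written lists. Counts of members are to be read against the 11.3% of all tested genes that rose and the 10.7% that fell, and medians against 0.01. Members listed but not tested had too few counts or were not in the table. Some members of small groups are named that were chosen after their values were seen.

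TGFβ feedback genes and SMAD targets rose as a rule: of 23 tested genes (of 25 listed), 19 rose, 0 fell and 4 did not pass, with a median log2 change of 2.62. PMEPA1, which restrains SMAD signaling, stood at 74.5 and 77.7 CPM at 0 h and 909 and 1161 CPM at 96 h (log2 change 3.76 ± 0.19, adjusted p = 2.18e-12). THBS1, thrombospondin 1, which can activate latent TGFβ, stood at 37.6 and 30.8 CPM at 0 h and 485 and 427 CPM at 96 h (log2 change 3.73 ± 0.18). For both genes the 96 h libraries lay far above the 0 h libraries. TGFBI, a secreted TGFβ-induced matrix protein, rose by 3.30 ± 0.17. TNS1, tensin 1, had 3 counts at 0 h and 34.6 and 31.9 CPM at 96 h (ratio 86.9 (exact 95% interval 28.9 to 428)).

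The EMT transcription factors moved unevenly. In this group of 17 tested genes (of 19 listed), 7 rose, 1 fell and 9 did not pass, with a median log2 change of 0.59 (0.45 with genes of 3 counts or fewer at one time set to their bound or count ratio, or to 0 where neither could be given). SNAI1, which represses CDH1, stood at 1.24 and 4.70 CPM at 0 h and 29.8 and 36.0 CPM at 96 h (log2 change 3.48 ± 0.40, adjusted p = 1.59e-06). SOX4, ETS2 and RUNX1 rose by 2.29, 2.45 and 2.02, and the 1 factor that fell was FOXQ1. ZEB1 stood at 16.1 and 13.8 CPM at 0 h and 12.5 and 18.9 CPM at 96 h and ZEB2 at 6.19 and 4.44 CPM at 0 h and 5.54 and 2.36 CPM at 96 h, and neither passed (log2 changes 0.08 ± 0.28 and -0.47 ± 0.51, adjusted p = 0.875 and 0.562), and the sign of both changed with the processing. The libraries of the 2 times overlapped for both. SNAI2 had 2 counts at each time and gives no ratio. Among epithelial transcription factors and splicing regulators, of 8 tested genes (of 21 listed), 2 rose, 4 fell and 2 did not pass, with a median log2 change of -0.72. ELF3, an ETS factor of epithelia, stood at 132 and 147 CPM at 0 h and 12.5 and 4.13 CPM at 96 h (log2 change -4.11 ± 0.36), and EHF, FOXA2 and KLF5 also fell, while the hepatic factor HNF4A, 1 of the 2 that rose, stood at 24.5 and 27.9 CPM at 0 h and 78.2 and 83.2 CPM at 96 h (log2 change 1.62 ± 0.19).

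Cell junction genes did not move as one. Of 13 tested cadherins, catenins and nectins, 4 rose (CDH2, CDH6, CTNNA1 and CTNNB1) and 3 fell, which were CDH1, the intestinal cadherin CDH17 (110 counts against 3, ratio 14.6 (exact 95% interval 4.88 to 72.0)) and JUP, plakoglobin, at 132 and 137 CPM at 0 h and 54.7 and 57.8 CPM at 96 h. The group's median of 0.12 ranged over -0.39 to 0.26 across processing settings. For tight junctions and desmosomes, of 19 tested genes (of 29 listed), 4 rose, 3 fell and 12 did not pass, with a median log2 change of -0.51 (range -0.73 to 0.27). Claudin 1 (CLDN1, 93.4 and 61.8 CPM at 0 h and 21.5 and 28.9 CPM at 96 h), the polarity protein PARD6B and the plakophilin PKP2 fell. Desmoglein 2 and desmocollin 2 (DSG2 and DSC2) rose by 0.79 and 1.57, as did F11R and, from 3 counts, CLDN4. EPCAM had 27 counts against 3 (ratio 3.59 (exact 95% interval 1.10 to 18.5)) and did not pass (adjusted p = 0.0827), though it did in 3 alternative settings.

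The cytoskeleton changed its intermediate filaments and its actin partners. Among keratins and other intermediate filaments, of 10 tested genes (of 15 listed), 1 rose, 4 fell and 5 did not pass, with a median log2 change of -0.03 (range -0.46 to 0.11). The gene that rose was VIM, vimentin, at 969 and 1193 CPM at 0 h and 3479 and 3290.2 CPM at 96 h (log2 change 1.65 ± 0.18), and those that fell were KRT8, KRT18, KRT19 and KRT80. KRT19, a keratin of simple epithelium, stood at 35.9 and 57.9 CPM at 0 h and 3.46 and 4.72 CPM at 96 h (log2 change -3.49 ± 0.48). Of actin, contractile and focal adhesion genes, of 30 tested genes (of 35 listed), 16 rose, 2 fell and 12 did not pass, with a median log2 change of 0.63. PDLIM7, a LIM protein of actin fibers, rose by 3.13 ± 0.25, PALLD, palladin, by 1.65 ± 0.15, and CALD1, caldesmon, by 1.54 ± 0.16. TNS3 and PDLIM5 fell. For the wider list of mesenchymal markers, of 16 tested genes (of 23 listed), 11 rose, 1 fell and 4 did not pass, with a median log2 change of 1.59. NT5E, the ecto-enzyme CD73, stood at 24.3 and 25.8 CPM at 0 h and 149 and 142 CPM at 96 h, and VCAN, versican, at 36.7 and 24.0 CPM at 0 h and 112 and 144 CPM at 96 h. The mesenchymal marker that fell was S100A4, also called FSP1, at 329 and 447 CPM at 0 h and 71.3 and 112 CPM at 96 h (log2 change -2.07 ± 0.21).

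Matrix genes rose in several families. Of fibrillar collagens and collagen-modifying enzymes, of 21 tested genes (of 28 listed), 11 rose, 0 fell and 10 did not pass, with a median log2 change of 1.74. COL5A1 stood at 2.23 and 3.39 CPM at 0 h and 139.8 and 178 CPM at 96 h (log2 change 5.81 ± 0.35). The collagen prolyl hydroxylase subunit P4HA3 stood at 6.69 and 5.22 CPM at 0 h and 102 and 99.1 CPM at 96 h (log2 change 4.07 ± 0.23). The lysyl hydroxylase PLOD2 rose by 1.74. Basement membrane genes split: of 16 tested genes (of 22 listed), 7 rose, 3 fell and 6 did not pass, with a median log2 change of 0.53. The type IV chains COL4A1 and COL4A2 rose by 4.48 ± 0.21 and 3.39 ± 0.24, and LAMA5, LAMA3 and COL4A6 fell, LAMA5 from 106 and 91.8 CPM to 54.0 and 41.3 CPM. Of fibronectin, matricellular and proteoglycan genes, of 20 tested genes (of 29 listed), 13 rose, 1 fell and 6 did not pass, with a median log2 change of 1.47, and the one that fell was GPC1. Fibronectin itself, FN1, stood at 176 and 186 CPM at 0 h and 265 and 250.1 CPM at 96 h and did not pass, although its libraries did not overlap (log2 change 0.51 ± 0.20, adjusted p = 0.0764). It passed in 9 of 28 alternative settings.

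Integrins, the matrix receptors, followed a like pattern. For these of 13 tested genes (of 17 listed), 9 rose, 2 fell and 2 did not pass, with a median log2 change of 1.15. ITGB3 had 0 counts at 0 h and 12.5 and 14.7 CPM at 96 h, at least 35.9-fold higher. ITGB6, a subunit of the epithelial integrin that activates latent TGFβ, had 1 count at 0 h and 15.9 and 7.67 CPM at 96 h (ratio 90.2 (exact 95% interval 15.2 to 3662)). ITGA1 stood at 2.23 and 3.13 CPM at 0 h and 47.1 and 40.7 CPM at 96 h and the fibronectin receptor subunit ITGA5 at 17.8 and 13.6 CPM at 0 h and 99.0 and 80.2 CPM at 96 h, while ITGB4, of hemidesmosomes, and ITGB5 fell. Of metalloproteinases and their inhibitors, of 16 tested genes (of 31 listed), 9 rose, 1 fell and 6 did not pass, with a median log2 change of 1.28. MMP2, gelatinase A, had 0 counts at 0 h and 27.7 and 34.8 CPM at 96 h, at least 82.7-fold higher, and MMP7 was the one that fell. The protease inhibitor SERPINE2 rose by 2.79 ± 0.16.

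**Figure D3:**
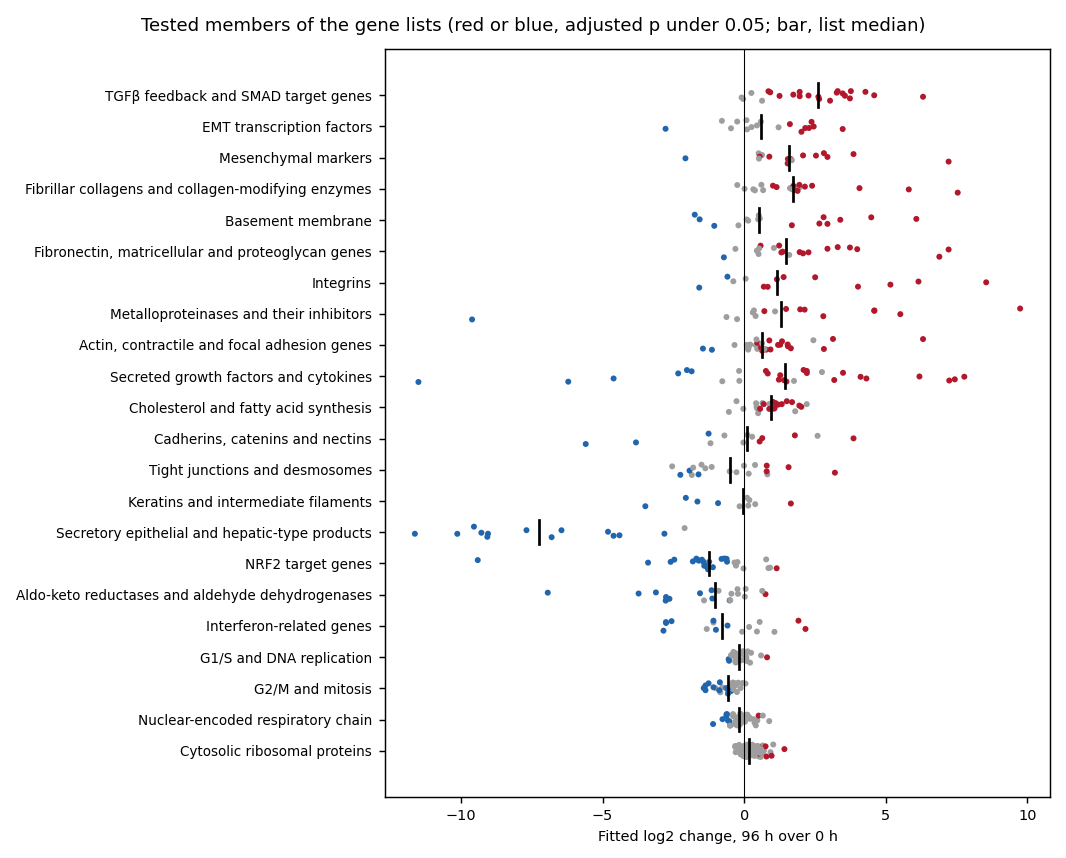
Log2 change from 0 h to 96 h of the tested members of each gene list (horizontal; red points rose and blue points fell past an adjusted p of 0.05, and gray points did not pass), with the list median as a black bar. Genes with 3 counts or fewer at one time are drawn at their fitted value, which is no size. The list of TGFβ feedback genes lies to the right with a median of 2.62, and that of NRF2 targets to the left with a median of -1.26.

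Secreted factors were exchanged. Of growth factors and cytokines, of 28 tested genes (of 36 listed), 17 rose, 6 fell and 5 did not pass, with a median log2 change of 1.45. VEGFA, the angiogenic factor, stood at 23.3 and 22.4 CPM at 0 h and 225 and 190.0 CPM at 96 h (log2 change 3.18 ± 0.19). The chemokine CXCL5 stood at 272 and 226 CPM at 0 h and 44.3 and 77.3 CPM at 96 h (log2 change -2.02 ± 0.20) and the stress cytokine GDF15 at 167 and 239.8 CPM at 0 h and 9.00 and 7.67 CPM at 96 h (log2 change -4.61 ± 0.50). Of 7 tested EGF family ligands and receptors, the ligands AREG and EREG fell, AREG from 964 counts to 3 (ratio 128 (exact 95% interval 43.7 to 623)) and EREG by -4.49 on the log2 scale. EGFR, NRG1 and HBEGF rose, EGFR from 87.4 and 112 CPM to 242 and 239.5 CPM. In the insulin-like growth factor axis, of 13 tested genes (of 15 listed), 5 rose, 4 fell and 4 did not pass, with a median log2 change of 0.54. IGFBP7 stood at 4.95 and 11.5 CPM at 0 h and 205 and 217 CPM at 96 h (log2 change 4.69 ± 0.37) and IGFBP1 at 27.0 and 26.1 CPM at 0 h and 0.692 and 3.54 CPM at 96 h (log2 change -3.56 ± 0.48). HTRA1, PAPPA, IGFBP3 and IGF1R rose, and IGFBP6, IRS1 and IRS2 fell. Among 10 tested ephrins and Eph receptors, EFNA1, EFNA2, EPHA4 and EPHB2 rose, EPHB2 by 2.16 ± 0.20, and EFNA5 fell.

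Nearly all secretory and hepatic-type products that could be tested fell. Members with few counts at 96 h passed the filter through their counts at other times, so for them a fall was the likelier outcome. The list was also chosen with earlier results of these data known, and its counts are a description. Of 34 listed genes only 14 passed the filter on low counts, with 17 others too low and 3 not in the table, and 13 of the 14 fell and 0 rose. The median fitted log2 change was -7.24, or -4.53 with genes of 3 counts or fewer set to their bound or count ratio. SLPI, a secreted protease inhibitor of mucosa, went from 46.8 and 35.2 CPM to 0 counts, at least 43.1-fold lower. Fibrinogen α (FGA), named after its values were seen, went from 215 counts to 0, at least 28.6-fold lower. In both, and in CEACAM6, nothing was detected in either 96 h library. For S100 proteins and annexins, of 19 tested genes (of 22 listed), 6 rose, 8 fell and 5 did not pass, with a median log2 change of -0.23. S100P went from 52.0 and 36.3 CPM to 0 counts, at least 46.4-fold lower, and ANXA13 from 224 counts to 3 (ratio 29.8 (exact 95% interval 10.1 to 146)). S100A6 stood at 4216 and 4201 CPM at 0 h and 1759.7 and 2040.1 CPM at 96 h. Of 7 tested caveolar genes, CAV1 and CAVIN2 fell, CAV1 from 557 and 425 CPM to 325 and 272 CPM. CAV1 was also the one alveolar lineage gene of 2 tested that fell.

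Targets of NRF2, the transcription factor of the antioxidant response, fell together: of 28 tested genes (of 30 listed), 1 rose, 20 fell and 7 did not pass, with a median log2 change of -1.26. The one that rose was HMOX1. Beside GPX2, GCLC, the catalytic subunit that limits glutathione synthesis, stood at 159 and 134 CPM at 0 h and 23.5 and 24.8 CPM at 96 h (log2 change -2.60 ± 0.19). TXNRD1, thioredoxin reductase, stood at 938 and 990.4 CPM at 0 h and 315 and 297 CPM at 96 h (log2 change -1.66 ± 0.16). The organic anion exporter ABCC2 fell by 1.81 on the log2 scale, and NQO1 stood at 2862 and 2573 CPM at 0 h and 1099.5 and 1027 CPM at 96 h (log2 change -1.35 ± 0.15). Aldo-keto reductases and aldehyde dehydrogenases, several of them also NRF2 targets, gave 10 falls and 1 rise among 20 tested genes (median -1.02). AKR1B10, the most abundant of them at 0 h, stood at 6024 and 6508 CPM at 0 h and 441 and 504 CPM at 96 h (log2 change -3.73 ± 0.17). AKR1C1, AKR1C2 and AKR1C3 changed by -3.12, -2.77 and -2.76. These paralogs are near-identical and the counting could share or drop their reads, so values of single members are uncertain. ALDH1A1 went the other way, at 3754 and 3197 CPM at 0 h and 6152 and 5555 CPM at 96 h (log2 change 0.75 ± 0.16).

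Among the genes with the largest gains in CPM were MALAT1, TGFBI, MT2A, ALDH1A1, VIM, RPLP1 and TMSB10, and among those with the largest losses AKR1B10, FTL, AKR1C3, AKR1C2, S100A6, NQO1 and TXN. MT2A, a metallothionein that binds zinc and copper, stood at 283 and 209 CPM at 0 h and 2638 and 2649 CPM at 96 h (log2 change 3.43 ± 0.19), with the same limit on near-identical copies. TXN, thioredoxin, stood at 3064 and 2644 CPM at 0 h and 1644 and 1634 CPM at 96 h. In both MT2A and TXN the libraries of one time lay to one side of the other.

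Cell cycle genes fell in part. For G2/M and mitosis, of 29 tested genes (of 30 listed), 0 rose, 11 fell and 18 did not pass, with a median log2 change of -0.57. The cyclin CCNB2 stood at 233 and 169 CPM at 0 h and 56.7 and 97.9 CPM at 96 h (log2 change -1.37 ± 0.21), the kinase AURKA at 104 and 110.4 CPM at 0 h and 27.7 and 54.3 CPM at 96 h (log2 change -1.37 ± 0.21) and the ubiquitin-conjugating enzyme UBE2C at 225 and 240.0 CPM at 0 h and 79.6 and 139 CPM at 96 h. Replicate 1 at 96 h was the lower of the pair for all 3, and without it 5 genes of the group fell, against 16 without replicate 2 and 6 without 0 h replicate 1. For G1/S and DNA replication, of 25 tested genes (of 28 listed), 1 rose, 2 fell and 22 did not pass, with a median log2 change of -0.20, with CCND1, cyclin D1, the one that rose (from 43.8 and 66.3 CPM to 80.3 and 112 CPM) and GINS1 and CDC6 the ones that fell (adjusted p = 0.0432 and 0.0454, the least stable calls among the named genes). Of CDK inhibitors and p53 targets, of 19 tested genes (of 23 listed), 8 rose, 1 fell and 10 did not pass, with a median log2 change of 0.39. TP53I3 stood at 18.1 and 26.1 CPM at 0 h and 113 and 143 CPM at 96 h (log2 change 2.54 ± 0.29), and GADD45B and BTG1 rose by 2.16 and 1.72, while PLK2 fell.

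Lipid synthesis genes rose without exception among those that passed: of 26 tested genes of cholesterol and fatty acid synthesis, 14 rose, 0 fell and 12 did not pass (median 0.95). INSIG1, a sterol-regulated brake on this pathway, stood at 40.9 and 51.7 CPM at 0 h and 196 and 179 CPM at 96 h (log2 change 2.02 ± 0.18). The stearoyl-CoA desaturase SCD stood at 589 and 517 CPM at 0 h and 1997 and 1566 CPM at 96 h (log2 change 1.69 ± 0.17). Squalene epoxidase (SQLE) rose by 1.33 and MSMO1, a sterol demethylase, by 1.12. For hypoxia response and glycolysis, of 23 tested genes (of 28 listed), 4 rose, 2 fell and 17 did not pass, with a median log2 change of 0.35. VEGFA, SLC2A1, SLC2A3 and P4HA1 rose, SLC2A1, the glucose transporter GLUT1, from 72.1 and 77.2 CPM to 136 and 161 CPM, and ENO1 and adrenomedullin (ADM, 138 and 125 CPM at 0 h and 44.3 and 50.1 CPM at 96 h) fell.

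Ribosomal, mitochondrial and other broadly expressed groups came next. Of 78 cytosolic ribosomal protein genes 6 rose and 0 fell (median 0.18), RPL28 most, at 533 and 575 CPM at 0 h and 1178 and 1783 CPM at 96 h. By edgeR, DESeq2 and limma 0 of 15 mitochondrially encoded genes passed (1 had an unadjusted p under 0.05 by edgeR), with a median of -0.32 that ranged over -0.42 to 0.06 across settings. Some of the other settings did call members of this group, higher or lower. Among nuclear-encoded respiratory chain genes, of 43 tested genes (of 44 listed), 1 rose, 8 fell and 34 did not pass, with a median log2 change of -0.19, with ATP5MC1 at 611 and 473 CPM at 0 h and 251 and 255 CPM at 96 h and ATP5F1E the one that rose. Of 25 tested ER chaperone and unfolded protein genes 4 rose (PDIA3, MANF, TRIB3 and KDELR3, by 0.77 to 1.29). For interferon-related genes, of 16 tested genes (of 30 listed), 2 rose, 7 fell and 7 did not pass, with a median log2 change of -0.79. IFITM2 stood at 224 and 181 CPM at 0 h and 28.4 and 31.3 CPM at 96 h and OAS1 at 64.9 and 55.6 CPM at 0 h and 7.61 and 12.4 CPM at 96 h, and ISG15 was among those that rose.

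Stress genes changed in both directions. Of heat shock and immediate early genes, of 19 tested genes (of 22 listed), 8 rose, 5 fell and 6 did not pass, with a median log2 change of 0.16 (range -0.07 to 0.42). The AP-1 gene JUN stood at 69.8 and 59.5 CPM at 0 h and 228 and 186 CPM at 96 h, FOSB at 28.5 and 24.5 CPM at 0 h and 91.3 and 77.3 CPM at 96 h, and ZFP36, which destabilizes AU-rich mRNA, at 33.2 and 47.7 CPM at 0 h and 257 and 213 CPM at 96 h (log2 change 2.54 ± 0.21). The 5 that fell were the chaperone genes HSP90AA1, HSP90AB1, DNAJA1 and HSPD1, and JUND. Of 15 genes of apoptosis and low cell quality, BBC3, BCL2L11, MALAT1 and NEAT1 rose and 0 fell. BCL2L11, which encodes the pro-apoptotic BIM, stood at 9.66 and 11.5 CPM at 0 h and 37.4 and 35.4 CPM at 96 h. The nuclear RNA NEAT1 stood at 253 and 246 CPM at 0 h and 571 and 508 CPM at 96 h and MALAT1 at 1526 and 2289.6 CPM at 0 h and 6456 and 7472 CPM at 96 h (log2 change 1.87 ± 0.45, adjusted p = 0.0229), a call lost in 6 alternative settings. The part of nuclear RNA in the other results was not tested. Of 3 tested genes of calcium pump regulation and muscle, SLN rose and ATP2A2, the SERCA2 pump that sarcolipin binds, stood at 438 and 327 CPM at 0 h and 210.4 and 207 CPM at 96 h (log2 change -0.87 ± 0.20).

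Genes not typed as protein coding in the table added 1263 tested genes, of which 129 rose and 75 fell. Together 16.2% were called, against 22.0% of all tested genes, of which 11.3% rose and 10.7% fell. Their median log2 change was 0.35, against 0.01 for all tested genes. Among 712 long noncoding RNAs 64 rose and 66 fell, 18.3% called together, against 22.7% of protein-coding genes. MEG3, an imprinted tumor-suppressive RNA, stood at 1.49 and 1.30 CPM at 0 h and 14.5 and 30.7 CPM at 96 h (log2 change 4.00 ± 0.47), and MEG8 of the same imprinted cluster at 3.22 and 3.39 CPM at 0 h and 32.5 and 36.6 CPM at 96 h (log2 change 3.37 ± 0.29). MIR31HG, the host transcript of miR-31, stood at 10.4 and 9.91 CPM at 0 h and 69.2 and 88.5 CPM at 96 h (log2 change 2.96 ± 0.24). These 3 were low at 0 h in both libraries. LINC02086 and AC010198.2 rose by 3.10 and 3.18. The largest falls by this rule were GACAT2 (24.3 and 21.4 CPM at 0 h and 2.08 and 2.36 CPM at 96 h), VPS9D1-AS1 (-2.33), DLEU2 (-1.55), OLMALINC (-1.45), LINP1 (-1.42) and SNHG4 (-1.39). Of 21 tested small nucleolar RNA host genes (SNHG), 6 fell and 1 rose. VEGFA is typed as a polymorphic pseudogene in the table but is protein coding in GENCODE 44.

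Processed pseudogenes that passed went one way: of 351 tested, 12.3% were called, of which 42 rose and 1 fell. Of 136 ribosomal protein pseudogenes 10.3% were called, and all 14 rose. Called rises were thus about as frequent as among all tested genes (11.3%), and called falls were rarer (10.7% of all tested genes). The median log2 change was 0.88 for processed pseudogenes and 0.84 for ribosomal protein pseudogenes, against 0.01 for all tested genes. Both groups thus lay higher at 96 h than the calls show, and the reason was not tested. These copies share sequence with their parent genes, so their counts cannot be told apart from reads of the parents. Without a stated strand setting, antisense RNAs such as VPS9D1-AS1 cannot be told apart from their overlapping partners.

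The last interval was compared to ask what still moved after 48 h. Between 48 h and 96 h 111 genes passed (0.946% of those tested), 70 higher (0.597%) and 41 lower at 96 h (0.350%), and 1231 had an unadjusted p under 0.05. Without replicate 1 or replicate 2 at 96 h, 34 and 35 genes passed, so the count rests on both libraries. It was 22 in a fit of these 4 libraries alone, 193 without the filter on low counts and 213 with the replicate number as a block. LCE3D changed most among genes reaching 50 CPM, with 10.3 and 7.74 CPM at 48 h and 131 and 263 CPM at 96 h (log2 change 4.42 ± 0.36, adjusted p = 2.91e-05). It lies on chromosome 1, 152579381 to 152580516, minus strand, 2 exons. CYP1B1, a cytochrome P450 of hormone and xenobiotic metabolism, stood at 84.7 and 73.1 CPM at 0 h, 11.5 and 15.9 CPM at 48 h and 65.0 and 40.7 CPM at 96 h (log2 change from 48 h 1.96 ± 0.26). IGFBP3, which binds insulin-like growth factors, stood at 139 and 179.8 CPM at 0 h, 77.6 and 87.0 CPM at 48 h and 244 and 345 CPM at 96 h (log2 change from 48 h 1.84 ± 0.19). Both genes were lower at 48 h, in both libraries, than at 0 h and at 96 h. The superoxide dismutase SOD2 and CXCL5 rose from 48 h by 1.32 and 1.37, MIR31HG by 1.39 and STC1 by 1.39.

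Of 26 tested genes of cholesterol and fatty acid synthesis 6 rose after 48 h and 0 fell. MSMO1 stood at 68.6 and 66.0 CPM at 48 h and 215 and 165 CPM at 96 h (log2 change 1.49 ± 0.20), INSIG1 at 78.0 and 76.0 CPM at 48 h and 196 and 179 CPM at 96 h (log2 change 1.28 ± 0.17) and SQLE at 72.5 and 78.3 CPM at 48 h and 149 and 183 CPM at 96 h. Their 48 h libraries lay below both 96 h libraries, but none of the 111 genes that passed between these times had overlapping libraries, so this adds no support. HMGCS1 and IDI1 were among the other genes of this list that rose, named after their values were seen, with log2 changes of 1.60 and 1.17. Of 23 tested hypoxia and glycolysis genes 6 rose and 0 fell. P4HA1 was one, at 34.4 and 25.5 CPM at 48 h and 50.5 and 76.7 CPM at 96 h, and the others, named after their values were seen, were BNIP3, EGLN3, SLC2A3, ENO2 and PGK1 (1.24, 1.67, 1.26, 0.98 and 0.70). PLOD2, P4HA1 and LOXL2 of the collagen-modifying list rose, PLOD2 at 144 and 142 CPM at 48 h and 313 and 294 CPM at 96 h. THBS1 stood at 179 and 228 CPM at 48 h and 485 and 427 CPM at 96 h (log2 change 1.16 ± 0.16).

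The genes that fell after 48 h included LXN, latexin, an inhibitor of carboxypeptidases, at 70.4 and 55.5 CPM at 48 h and 20.8 and 15.9 CPM at 96 h (log2 change -1.80 ± 0.28), the apolipoprotein APOC1 (-1.34), JUP (-1.26), the phosphatase PTPRJ (-1.15), the ganglioside synthase ST3GAL5 (-1.09) and the lipid droplet protein FITM2 (-1.05). Of the G2/M list CCNB2, UBE2C and AURKA fell, CCNB2 at 159 and 163 CPM at 48 h and 56.7 and 97.9 CPM at 96 h (log2 change -1.05 ± 0.21). The pseudogene MTND5P11 changed by -1.19, with the limit on shared reads. Of the markers, SPOCK1 rose further, at 73.1 and 56.9 CPM at 48 h and 123 and 114 CPM at 96 h (log2 change 0.86 ± 0.19, adjusted p = 0.0265), and MMP7 fell further, from 6.34 and 6.83 CPM (adjusted p = 0.0317). CDH2 stood at 53.8 and 65.6 CPM at 48 h and 123 and 92.6 CPM at 96 h and did not pass (log2 change 0.86 ± 0.22, adjusted p = 0.0654). SLN stood at 47.7 and 36.4 CPM at 48 h and 47.7 and 43.7 CPM at 96 h, a difference that did not pass (log2 change 0.11 ± 0.25).

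**Figure D4:**
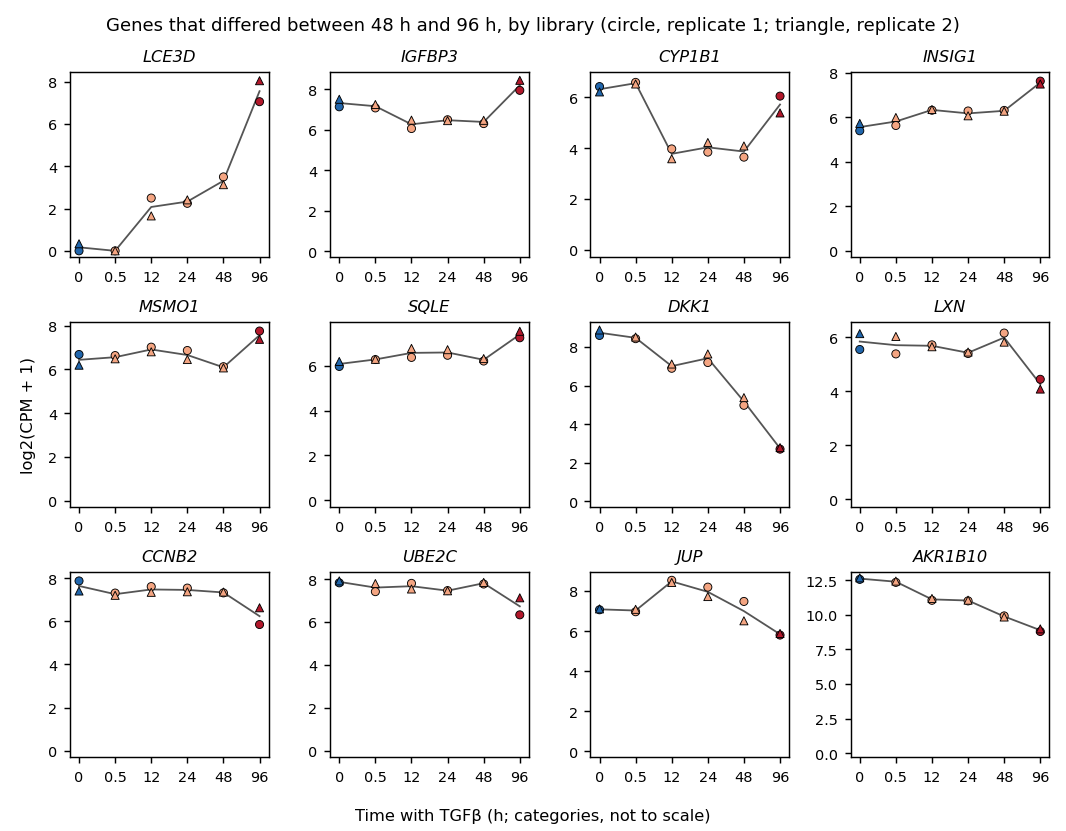
Levels of 12 genes that differed between 48 h and 96 h, as log2(CPM + 1) against hours of TGFβ (categories, not to scale). Circles are replicate 1, triangles replicate 2 and the line their mean. LCE3D goes from 10.3 and 7.74 CPM at 48 h to 131 and 263 CPM at 96 h.

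Against 12 h, 1275 genes passed at 96 h (10.9%), 650 higher (5.54%) and 625 lower (5.33%). Without 96 h replicate 2, 12 h replicate 1 or 96 h replicate 1 the count was 516, 592 and 694. Among genes reaching 50 CPM, LCE3D (5.85), NPTX1 and SPOCK1 led those that were higher, NPTX1 at 5.10 and 14.3 CPM at 12 h and 259 and 282 CPM at 96 h (log2 change 4.80 ± 0.40) and SPOCK1 at 14.8 and 11.7 CPM at 12 h and 123 and 114 CPM at 96 h (log2 change 3.16 ± 0.21). The secretory GTPase RAB3B, the potassium channel KCNMA1, the folliculin partner FNIP2 and the methyltransferase NNMT followed at 3.01, 2.32, 2.31 and 2.31. RAB3B stood at 29.5 and 31.6 CPM at 12 h and 228 and 266 CPM at 96 h. A few genes stood higher at 12 h than at 0 h and at 96 h. TNS4, a tensin of epithelial cells, stood at 7.18 and 5.48 CPM at 0 h, 83.3 and 57.8 CPM at 12 h and 0 counts at 96 h. The neuropeptide gene NTS stood at 48.0 and 45.4 CPM at 0 h and 88.1 and 113 CPM at 12 h and 1.38 and 0 CPM at 96 h (log2 change from 12 h -7.22 ± 0.46). ALDH3A1 still stood at 708 and 551 CPM at 12 h.

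Shares of single cells were compared last, since a sum hides how many cells carry a transcript. Each kept cell was thinned once at random to 13245 UMIs (the 5th percentile of these cells), which left 170 and 157 cells at 0 h and 51 and 63 at 96 h. CDH1 was seen in 31.2% and 29.9% of 0 h cells and in 0% and 1.59% of 96 h cells, and CDH2 in 7.06% and 13.4% and in 70.6% and 60.3%. Cells with both cadherins made up 0.588% and 3.18% at 0 h, and at 96 h 0 of 51 cells, which allows a share of up to 5.88%, and 1 of 63 (1.59%). At 96 h MMP7 had 0 UMIs in the thinned cells of either library, which allows shares of cells with a UMI of up to 5.88% and 4.76%, and without thinning it was seen in 1 cell of replicate 1 (1.85%). SPOCK1 was seen in 0% and 1.91% and 66.7% and 66.7%, SLN in 0% and 0% and 23.5% and 27.0%, and MMP7 in 80.0% and 75.8% and 0% and 0%. For these 5 genes the shares of the 2 times did not overlap. Without thinning, the 96 h shares were 81.5% and 81.2% for CDH2, 83.3% and 81.2% for SPOCK1 and 37.0% and 42.2% for SLN. SNAI1 was seen in 1.18% and 6.37% and 29.4% and 27.0%, and COL1A1 in 0.588% and 2.55% and 70.6% and 65.1%, without overlap between the times. ZEB1 was seen in 15.3% and 16.6% and 11.8% and 23.8%, and these shares overlapped.

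Wells with under 1000 genes, which had a median of 1006.5 and 1257 UMIs at 0 h and 841.5 and 496 at 96 h, were taken as the background. At 96 h CDH2 was seen in 12.8% and 15.1% of these wells, SPOCK1 in 12.8% and 10.3% and SLN in 2.41% and 1.93%, each below the share in kept cells of the same library. Their depth is far lower, so depth and background cannot be told apart in this gap. As CPM of the unscaled sums, CDH2 stood at 165 and 326 CPM in these wells against 126 and 92.7 CPM in kept cells, and SPOCK1 at 165 and 219 CPM against 126 and 115 CPM, so that neither was lower in the low-gene wells. SLN stood at 26.3 and 35.5 CPM against 49.0 and 43.7 CPM. All cells are of one line, so no cell type that should lack these genes was at hand. A cell without a UMI may still express the gene at this depth.

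**Figure D5:**
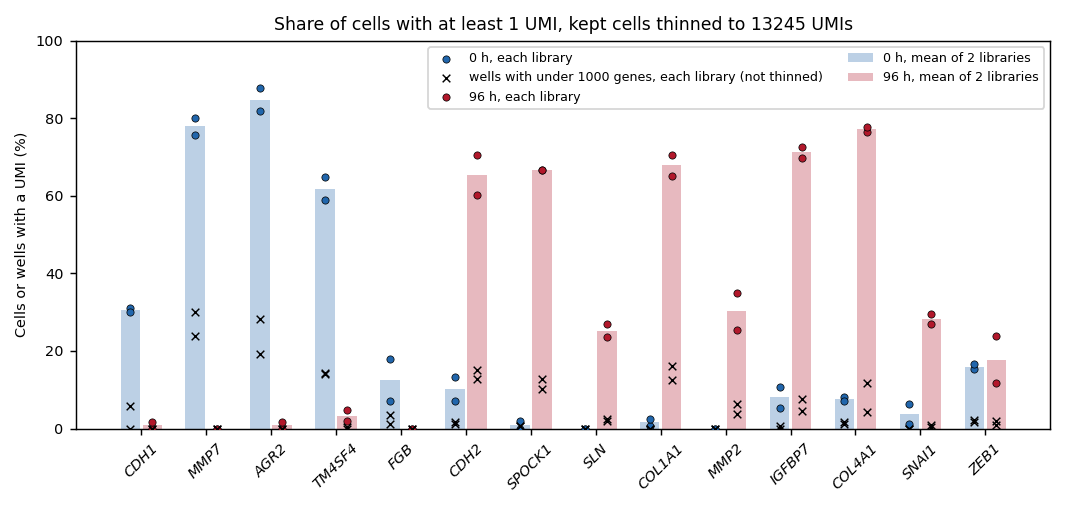
Percent of kept cells with at least 1 UMI of each gene after thinning to 13245 UMIs, at 0 h (blue) and 96 h (red). Bars are means of 2 libraries, circles the libraries and crosses the unthinned wells with under 1000 genes. CDH1 drops from 31.2% and 29.9% of cells to 0% and 1.59%, and CDH2 climbs from 7.06% and 13.4% to 70.6% and 60.3%.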

How the data were processed

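The deposited table held raw UMI counts, not normalized (highest 2845), which the authors made from CEL-Seq2 reads for 29035 genes and 4608 wells (384 per library). The submitters' processing notes name Trim Galore 0.6.7, HISAT2 2.2.1, featureCounts 2.0.1, UMI-tools and GRCh38. The study's methods give other versions of Trim Galore and featureCounts for the single-cell reads, and which were used is not known here. For annotation release and strand, settings were not given in the sources used here. Reads were not used here, and 0 columns of other samples were left unused.

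Wells were kept by the limits of the study's methods (100 to 40000 UMIs, 2000 to 7000 genes, at most 35% mitochondrial counts). The 1871 cells left are not the number the study gives. Sorting placed 1 cell in a well, so doublets were not called. Library sums took in all gene types. At the smaller 96 h sum a count of 0 allows up to 2.13 CPM (3 counts), and intervals and floors cover counting error only.

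The sums entered edgeR 4.0.16 (R 4.3.3), filtered by filterByExpr and scaled by TMM, and its robust quasi-likelihood F test was run with a mean per time over all 12 libraries (6 residual degrees of freedom, common biological coefficient of variation 0.145, median prior degrees of freedom 15.4). The 3 comparisons were 96 h against 0 h, 48 h and 12 h, with Benjamini-Hochberg adjustment over the 11728 genes tested and a threshold of 0.05. SE was taken as the absolute log2 change over the root of F. A group at 0 counts gives a lower bound against 3 counts over the group. With 1 to 3 counts the ratio of summed counts is given with its exact 95% interval.

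Named genes are a panel of 16, the 15 highest and 15 lowest changes (8 and 8 against 48 h and 12 h) that passed without overlap and reached 50 CPM, 6 and 6 not protein coding that reached 20 CPM, up to 4 members per list by adjusted p, and the 8 largest gains and losses in CPM. Some genes that this rule names are not reported here. The members and the 41 lists, the panel included, were chosen with earlier results of these data known. Lists are given by counts and medians, with no set test. Cells were thinned to 13245 UMIs (1 random draw) for shares of cells, and wells with under 1000 genes served as background. Positions are from GENCODE 44 (11717 of 11728 identifiers matched, on the same chromosome), promoters from RefSeq (GRCh38.p14).

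Alternatives were DESeq2 1.42.0, limma 3.58.1, other scalings, filters, cell limits and depths, and each library left out in turn. The test was tried on simulated data for 96 h against 0 h over 11430 genes. It recovered 3.12%, 29.2% and 81.8% of the 64, 65 and 66 genes changed by 1.5, 2 and 4 times, with 5 false among 80 calls. Only 200 genes were given a change there, far fewer than passed in the data. The adjustment was therefore stricter, and these shares do not give the power of the reported test. Tables were made in Python 3.11.15 (pandas 2.3.3, scipy 1.17.1, numpy 2.4.6) and figures in matplotlib 3.10.9.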

Additional observations from a re-analysis of the deposited data

Results flagged for a closer look

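Of the named genes, 6 changed from 0 h in opposite directions at 12 h and 96 h, and each differed between 96 h and 12 h in the fit itself (edgeR). JUP, plakoglobin of adherens junctions and desmosomes, stood at 132 and 137 CPM at 0 h, 369 and 342 CPM at 12 h and 54.7 and 57.8 CPM at 96 h (log2 change from 12 h -2.66, adjusted p = 4.61e-06). KRT80, a keratin, stood at 112 and 89.5 CPM at 0 h, 287 and 205 CPM at 12 h and 21.5 and 26.5 CPM at 96 h (log2 change -3.35, adjusted p = 2.07e-05). In both the 12 h libraries lay above those of 0 h and the 96 h libraries below. TNS4 stood at 7.18 and 5.48 CPM at 0 h, 83.3 and 57.8 CPM at 12 h and 0 and 0 CPM at 96 h, and its fitted change of -10.91 is no size because of the 0 counts at 96 h. NTS, neurotensin, stood at 48.0 and 45.4 CPM at 0 h, 88.1 and 113 CPM at 12 h and 1.38 and 0 CPM at 96 h (log2 change -7.22). ST3GAL5, the enzyme that makes ganglioside GM3, stood at 113 and 92.9 CPM at 0 h, 232 and 188 CPM at 12 h and 63.0 and 63.7 CPM at 96 h (log2 change -1.73). IGFBP3 took the other course, with 139 and 179.8 CPM at 0 h, 65.4 and 87.5 CPM at 12 h and 244 and 345 CPM at 96 h (log2 change 1.95, adjusted p = 4.42e-07), its 12 h libraries below those of both other times.

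Wells with under 1000 genes, which no comparison used, held transcripts of marker genes at 96 h. SPOCK1 reached a mean of 192 CPM and SLN of 30.9 CPM in their summed counts, against 5.14 and 0 CPM in such wells at 0 h. In the kept cells at 96 h the means were 121 and 46.4 CPM (CPM of the unscaled sums).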

How the results depend on the processing

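Calls were recomputed under 28 other settings, 12 of which left out 1 library. Against 0 h, 48 h and 12 h, 2584, 111 and 1275 genes passed. Testing against a 1.5-fold change left 1146, 13 and 389, and stricter limits on cells (at least 3000 genes, at most 20% mitochondrial counts) left 631, 21 and 274, with 5047 genes tested. Leaving out 1 library at a time gave 1509 to 2894, 34 to 119 and 516 to 1588. Without a filter on low counts 193 genes passed against 48 h, and in a fit of only the 4 libraries of that comparison 22 did. Leaving out the filter also moved the share of called genes that were higher from 51.4% to 44.4% against 0 h and from 51.0% to 39.5% against 12 h. Without upper limits on UMIs and genes, an alternative chosen after the data were seen, 2866, 135 and 1529 passed. The cause of these differences was not tested, other than the smaller number of cells, genes or libraries that a setting itself leaves. Of 167 named genes that passed against 0 h, 122 passed in each setting that tested them and 45 lost the call in at least 1. ZEB1 changed sign without the filter (-0.022), with equal cell numbers (-0.075) and without 0 h replicate 2 (-0.042) or 96 h replicate 2 (-0.29), and ZEB2 without 96 h replicate 2 (0.036). With 1 library left out ZEB1 ranged from -0.29 to 0.32 and ZEB2 from -1.18 to 0.036. Neither passed in any of these. On simulated data with 200 changed genes, changes of 1.5-fold were mostly missed. Far more genes passed in the data (2584), which makes the adjustment less strict, so this share does not carry over.

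The replicate numbers mark 2 barcode sets that share 0 barcodes, and the labels tie them to no culture or day. Deviations from the time means correlated at -0.13 to 0.34 between libraries of one number (0.09 for 0 h and 96 h). They were negative in every pair that holds 0.5 h and at least 0.10 in all pairs but these and 0 h with 96 h. Replicate 1 had the higher protein-coding share of UMIs at every time (90.5% against 89.2% at 0 h, 89.8% against 88.7% at 96 h). It also had more wells over the upper limits at every time (10 against 3 at 0 h, 20 against 6 at 96 h). A difference by number is thus visible. The main fit did not pair the samples by number, and the part of this difference in the calls was not tested other than by a block. With the replicate number as a block 3035, 213 and 1775 genes passed against 0 h, 48 h and 12 h, and the block changed no call among the named genes at 96 h against 0 h.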
